A study of Homo sapiens with 12 samples.

Results

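Short structured noncoding RNAs are the small transcripts that work as RNA inside ribonucleoprotein particles. They were followed here by class in MOLT4, an established human T lymphoblast line from an acute lymphoblastic leukaemia. A listed gene was a member when RefSeq gives it a noncoding type other than lncRNA, pseudogene or rRNA. RN7SK and 2 other genes that the rule names were left out. The rule gave 44 of the 5759 listed genes: 9 snRNAs, 11 box C/D snoRNAs, 3 Cajal body RNAs, RPPH1, 2 SRP RNAs, 4 nuclear tRNAs, 1 mitochondrial tRNA and 13 microRNA genes. No member was a Y, vault, RNase MRP or telomerase RNA.

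The 12 samples of wild-type MOLT4 cells formed 4 groups of 3: a 6 h DMSO group, 2 groups given 0.1 µM of compound 955 (1 h and 6 h), and a group given 1 µM of SNS-032 over 6 h. SNS-032 inhibits CDK9, a kinase of transcription elongation, and related cyclin-dependent kinases, and 955 is a conjugate of piperlongumine with SNS-032 as its warhead. The comparison asks how the effect of 955 relates to that of SNS-032, but their doses differ, and DMSO was collected at 6 h only, so that treatment and time in culture cannot be told apart at 1 h. The labels name total RNA and an mRNA library kit, and they do not say whether replicates were separate cultures, so p-values measure only the spread between these samples. With an mRNA kit, the counts of any class below need not measure the mature RNA.

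The values came from the authors' deposited table of 3 comparisons with DMSO, which holds a log2 fold change, a false discovery rate (FDR) and 1 average level per gene, and no value per sample. Depth is unknown. The threshold used throughout is an FDR under 0.05 together with a log2 fold change of at least 1 in either direction. Because the FDR of every listed gene was under 0.05 somewhere in the table, a member had to change to be listed, and counts of changed members describe the table and not all small RNAs. RefSeq holds 156 snRNA, 1199 snoRNA, 465 tRNA and 1913 miRNA genes, most of which are not analysed here. The implied standard error (SE) divides the size of the log2 fold change by the root of its F statistic. The implied group level in CPM (counts scaled to library size) follows from the average level and the 3 fold changes, under the assumption that the average is the log2 of the mean over 4 equal groups. It has no error of its own. The lowest average level of any listed gene was 0.003 log2 CPM, which is about 1 CPM. Members with an implied DMSO level under 1 CPM were therefore listed only through groups where they stood higher. For them a rise in at least 1 group was fixed by the listing, while which groups rose, and by how much, was not. Counts of these members as higher are therefore no independent result. Only 15 members had an implied DMSO level over 1 CPM.

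Small nuclear RNAs pair with introns and form the cores of the spliceosomes. U1, U2, U4 and U5 serve the major spliceosome, while U11, U12 and U4atac serve the minor one, which removes a rare class of introns. Most of these genes, and those of the U3 and U13 snoRNAs, have compact promoters of their own that are read by RNA polymerase II with the SNAP complex, and the Integrator complex cuts the transcript at its end. Other box C/D snoRNAs are released from introns of host genes. The RNAs of RNase P and of the signal recognition particle (SRP), and nuclear tRNAs, are made by RNA polymerase III. MicroRNAs are cut from longer polymerase II transcripts.

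In both 6 h groups nearly all classes stood higher than in DMSO, except the box C/D snoRNAs that lie in host genes. Over the members, 35 were higher and 4 lower past the threshold after 955 for 6 h, and 36 were higher and 6 lower after SNS-032. Among all listed genes 35.2% were higher and 50.1% lower after 955, and 37.8% and 52.5% after SNS-032. The median log2 fold change of the members was 3.14 after 955 and 3.82 after SNS-032 in the authors' deposited table, beside -1.03 and -1.07 over all listed genes. The same direction past the threshold in both 6 h comparisons was found for 37 members. At 1 h of 955, 3 members were higher (background 0.729%) and 2 lower (background 7.71%), with a median of 0.46 beside -0.05. Without the fold bound, 6 members were under the FDR threshold at 1 h (background 16.6%), 40 after 955 for 6 h (background 93.5%) and 42 after SNS-032 (background 95.7%).

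These directions rest on the authors' scaling, and in bulk RNA fewer cells and less RNA per cell cannot be told apart. The 13 mitochondrially encoded mRNAs, which another polymerase makes, had median log2 fold changes of 0.67, 2.07 and 2.35 in the authors' deposited table for 1 h of 955, 6 h of 955 and 6 h of SNS-032 in turn. When those medians were subtracted, 2 members were higher (background 0.278%) and 8 lower (background 30.7%) at 1 h. At 6 h, 21 members were higher and 9 lower after 955, and 21 and 11 after SNS-032. The backgrounds at 6 h on that scale were 2.47% higher and 66.4% lower, and 2.01% and 72.1%. Each class below is given on both scales where the scale changes its calls.

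**Figure D1:**
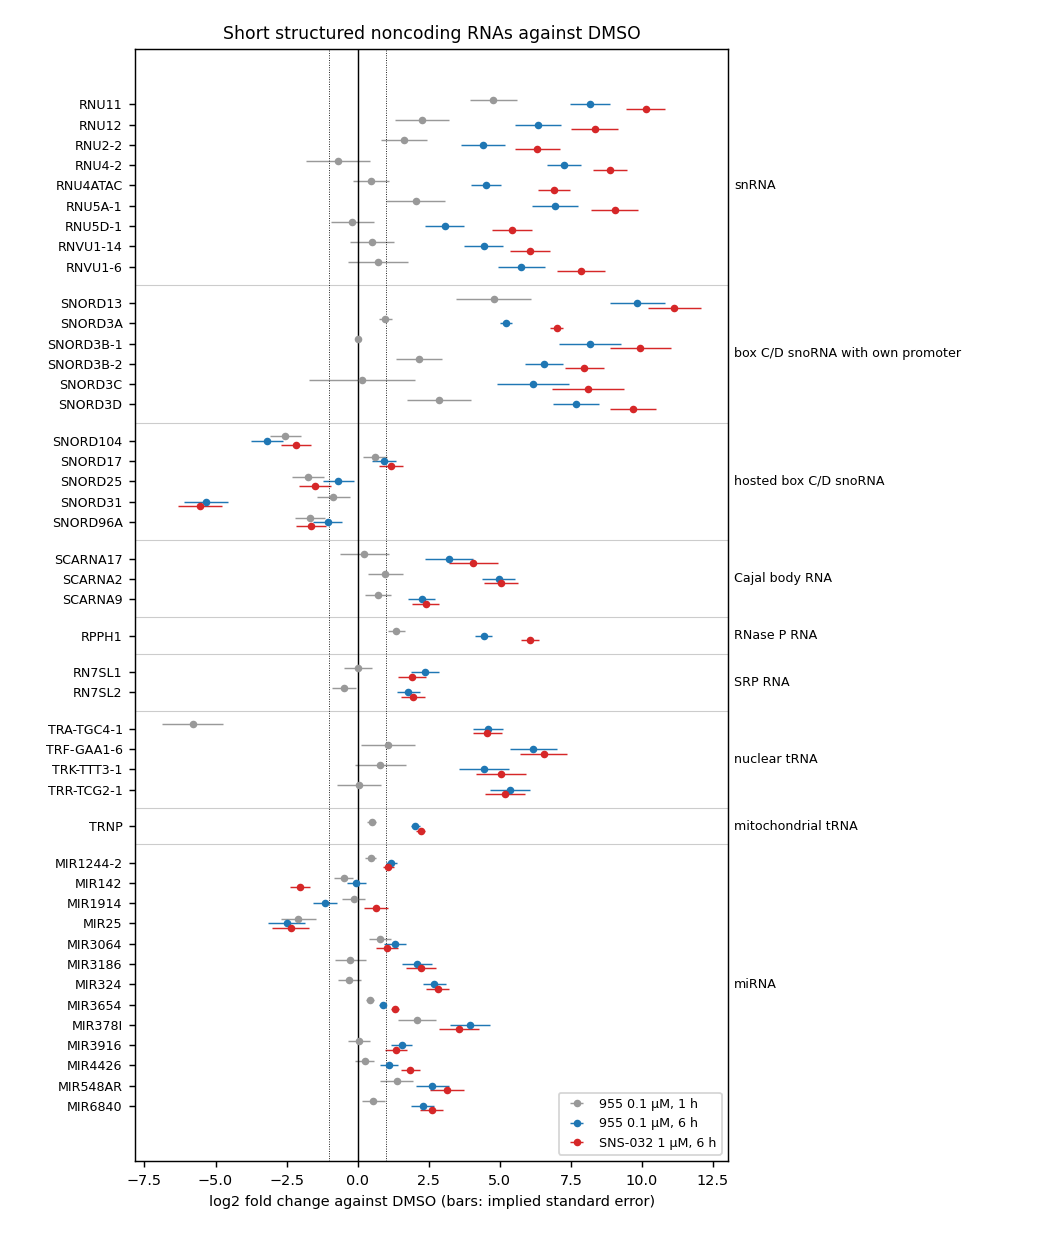
Log2 fold change against DMSO (horizontal axis) of each of the 44 members, by class, with 1 h of 955 in grey, 6 h of 955 in blue and 6 h of SNS-032 in red. Points are the authors' values and bars are implied SE. The snRNAs and the box C/D snoRNAs with their own promoter lie farthest to the right at 6 h, and SNORD31 and SNORD104 lie left of zero. SNORD3B-1 has no bar at 1 h, where its F was 0.

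All 9 snRNAs were past the threshold and higher in both 6 h comparisons. Their implied DMSO levels were all under 1 CPM, so a rise in some group was fixed by the listing. Their median log2 fold change was 5.76 after 955 and 7.85 after SNS-032 in the authors' deposited table, and 0.73 at 1 h. The sequences of 6 of them are shown because the class holds unrelated genes that share little beyond a short binding site for the Sm proteins. Capitals mark the only match to ATTTNTG or ATTTTTTG on the RNA strand, a search written for that site. The GENCODE 29 models (GRCh38) are printed 5′ to 3′ as DNA letters.
RNU11 (U11, minor spliceosome, chr1:28648600-28648733, plus strand): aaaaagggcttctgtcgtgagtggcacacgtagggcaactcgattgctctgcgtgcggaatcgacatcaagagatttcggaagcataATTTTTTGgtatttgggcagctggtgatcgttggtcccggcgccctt
RNU12 (U12, minor spliceosome, chr22:42615244-42615393, plus strand): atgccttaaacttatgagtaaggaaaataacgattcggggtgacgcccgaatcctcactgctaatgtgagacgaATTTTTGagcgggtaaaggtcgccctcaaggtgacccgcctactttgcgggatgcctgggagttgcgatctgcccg
RNU4ATAC (U4atac, minor spliceosome, chr2:121530881-121531007, plus strand): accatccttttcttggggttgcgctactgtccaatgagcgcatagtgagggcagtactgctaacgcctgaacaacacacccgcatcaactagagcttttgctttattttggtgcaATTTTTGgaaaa
RNU4-2 (U4, chr12:120291763-120291903, minus strand): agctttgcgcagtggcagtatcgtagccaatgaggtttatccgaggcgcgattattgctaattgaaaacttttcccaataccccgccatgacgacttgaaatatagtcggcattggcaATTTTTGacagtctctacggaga
RNU2-2 (U2, chr11:62841619-62841809, minus strand): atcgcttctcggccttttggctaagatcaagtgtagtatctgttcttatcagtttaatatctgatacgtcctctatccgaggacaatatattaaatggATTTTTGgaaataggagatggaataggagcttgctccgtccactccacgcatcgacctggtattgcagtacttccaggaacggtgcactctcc
RNVU1-6 (a U1 variant, chr1:146052081-146052244, minus strand): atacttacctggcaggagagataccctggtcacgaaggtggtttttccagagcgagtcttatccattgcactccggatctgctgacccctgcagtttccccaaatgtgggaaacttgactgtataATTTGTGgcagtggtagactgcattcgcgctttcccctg
Each of the 9 snRNAs holds 1 match. The same letters occur in 12.1% of the 5576 GENCODE transcripts of 100 to 200 bases and in 32.5% of the 1576 annotated as snRNA among them, many of which are copies of unknown activity.

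RNU11 was the only snRNA past the threshold at 1 h. Its implied level was 0.0105 CPM in DMSO, 0.287 CPM after 955 for 1 h, 3.02 CPM after 955 for 6 h and 11.9 CPM after SNS-032. The authors' deposited table gives log2 fold changes of 4.77 (SE 0.82, FDR 0.000771), 8.17 (SE 0.70, FDR 1.4e-09) and 10.14 (SE 0.69, FDR 2.84e-11) at an average level of 1.93 log2 CPM. The other 8 snRNAs had 1 h values from -0.70 to 2.26, none past the threshold.

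RNU5A-1 had the highest implied snRNA level after SNS-032, 24.4 CPM, beside 0.0463 CPM in DMSO and 5.74 CPM after 955 for 6 h. Its log2 fold changes in the authors' deposited table were 2.05 (FDR 0.499), 6.96 (FDR 2.46e-05) and 9.04 (FDR 2.52e-06) in the order 1 h of 955, 6 h of 955, SNS-032, at an average of 2.93 log2 CPM. RNU4-2 gave -0.70 (FDR 1), 7.25 (FDR 1.7e-09) and 8.87 (FDR 6.93e-11) there, at 2.31 log2 CPM. RNU12 gave 2.26 (FDR 0.307), 6.33 (FDR 2.22e-05) and 8.34 (FDR 1.54e-06), at 2.26 log2 CPM, also in the authors' deposited table. The implied levels of these 3 genes ran from 0.0319 to 0.0465 CPM in DMSO and from 3.74 to 5.74 CPM after 6 h of 955. The remaining 5, RNVU1-6, RNVU1-14, RNU2-2, RNU4ATAC and RNU5D-1, had values in the authors' deposited table between 3.06 and 5.76 after 955, and between 5.42 and 7.85 after SNS-032. Minor spliceosomal RNAs did not form a block apart: RNU11 had the highest value after SNS-032, while RNU4ATAC, at 6.90, lay below the class median. On the mitochondrial scale 8 of 9 remained past the threshold after 955, RNU5D-1 having 0.98 there, and 9 of 9 after SNS-032.

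Box C/D snoRNAs guide methylation of other RNAs or, like U3, fold the precursor of ribosomal RNA for cleavage. The U3 copies SNORD3A, SNORD3B-1, SNORD3B-2, SNORD3C and SNORD3D and the U13 gene SNORD13 are transcribed from promoters of their own, and 6 of 6 were higher in both 6 h comparisons. Their median log2 fold change was 1.56 at 1 h, 7.12 after 955 for 6 h and 8.90 after SNS-032, again from the authors' deposited table. All 6 had implied DMSO levels under 1 CPM, so a rise in some group was fixed by the listing. The U3 sequence is shown because the copies are nearly identical, so that their counts cannot be assigned with certainty. Capitals mark the first TGATGA (box C letters) and the last CTGA (box D letters).
SNORD3A (U3, chr17:19188016-19188232, plus strand): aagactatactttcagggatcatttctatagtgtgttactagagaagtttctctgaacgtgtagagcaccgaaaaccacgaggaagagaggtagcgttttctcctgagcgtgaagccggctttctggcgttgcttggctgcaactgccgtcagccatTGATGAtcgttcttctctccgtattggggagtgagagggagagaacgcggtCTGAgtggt
Counted from 1 at the 5′ end of these 217 bases, SNORD3B-1 and SNORD3B-2 each differ by A78C, SNORD3C by G108A, and SNORD3D by A4G, C53T and A78C. SNORD3B-1 and SNORD3B-2 hold the same 217 letters. GENCODE also holds longer models of 699, 758, 791 and 581 bases for SNORD3A, SNORD3B-1, SNORD3B-2 and SNORD3C, and the gene-level values do not say which form was counted.

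SNORD3A was the best measured of them, with an average of 4.73 log2 CPM in the authors' deposited table. Its implied level rose from 0.63 CPM in DMSO and 1.24 CPM after 955 for 1 h to 23.4 CPM after 955 for 6 h and 80.7 CPM after SNS-032. Log2 fold changes in the authors' deposited table were 0.97 (SE 0.22, FDR 0.00931) at 1 h, below the fold bound, then 5.22 (SE 0.22, FDR 2.56e-14) and 7.002 (SE 0.23, FDR 6.43e-16).

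SNORD13 had the largest log2 fold change of any listed gene in both 6 h comparisons, 9.84 (FDR 3.08e-08) after 955 and 11.14 (FDR 3.27e-09) after SNS-032 in the authors' deposited table, at an average of 1.44 log2 CPM. It was also higher at 1 h, by 4.79 (FDR 0.0403) there. SNORD3B-1 gave 0.00 (FDR 1), 8.18 (FDR 4.57e-06) and 9.95 (FDR 2.62e-07) in the authors' deposited table, at 0.11 log2 CPM. The implied DMSO levels of these 2 genes, 0.00338 and 0.00337 CPM, lie at the lowest implied level of any listed gene in any group. Only 3 listed genes reach that level within 5%, all of them members, so their fold changes depend on how the authors' fit treats counts near 0 and are neither exact nor bounds. SNORD3D gave 2.86 (FDR 0.2), 7.68 (FDR 4.92e-08) and 9.68 (FDR 9.21e-10) at 1.44 log2 CPM in the authors' deposited table. SNORD3C gave 0.15 (FDR 1), 6.16 (FDR 0.00133) and 8.11 (FDR 0.000123), at 0.62 log2 CPM, with the widest SE of the class, and SNORD3B-2 gave 6.55 and 7.96 at 6 h. All 6 were also past the threshold on the mitochondrial scale in both 6 h comparisons. On a list of 29 sn- and snoRNA genes with polymerase II promoters of their own, 15 were in the table, and 15 of 15 were higher in both 6 h comparisons, with medians of 6.33 and 8.11. The Cajal body RNAs SCARNA2 and SCARNA17 are among them, so the set is not the snRNA and own-promoter snoRNA classes together. All 15 had implied DMSO levels of at most 0.63 CPM, so a rise of each in some group was fixed by the listing. On the mitochondrial scale 13 were higher after 955 for 6 h and 14 after SNS-032.

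**Figure D2:**
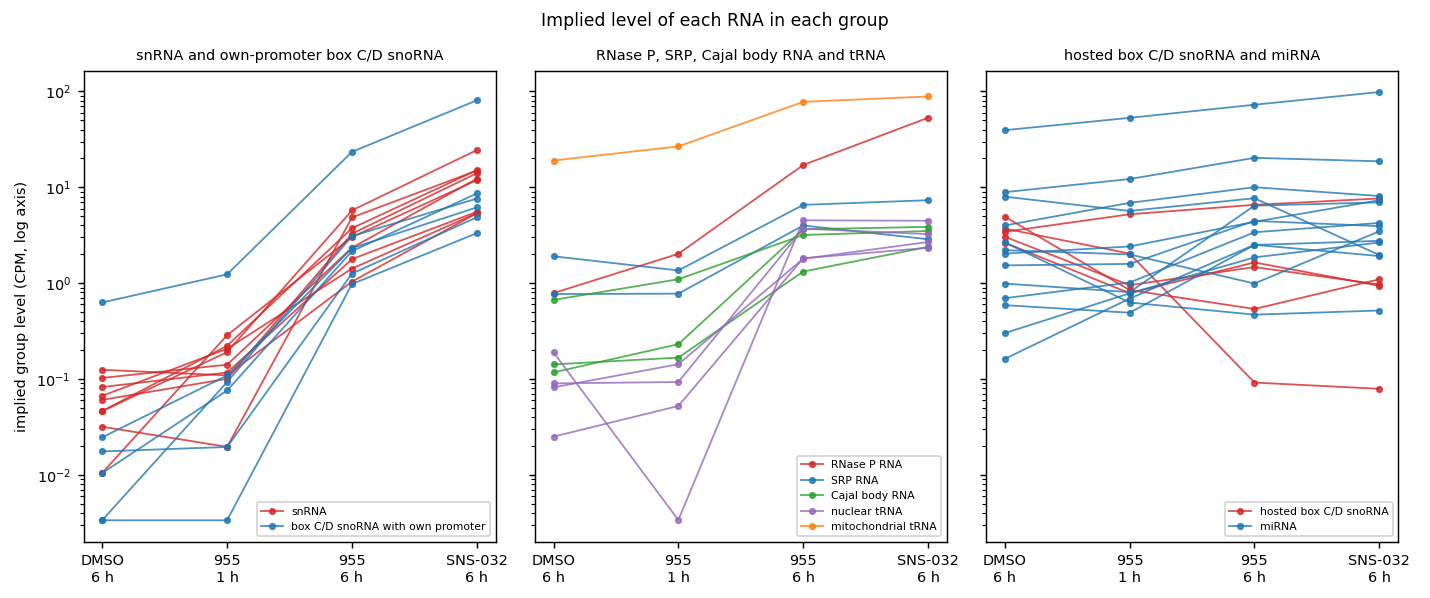
Implied group level in CPM (log axis) of each member in DMSO and in the treated groups (1 h of 955, 6 h of 955, 6 h of SNS-032), 1 line per gene, in 3 panels by class. The snRNAs and own-promoter box C/D snoRNAs climb from at most 0.63 CPM in DMSO to at least 3.33 CPM after SNS-032. The hosted box C/D snoRNAs start at 2.65 CPM or more, and 4 of 5 end below their start.

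The 5 box C/D snoRNAs that lie in host genes did not follow their own-promoter relatives. None was higher and 2 were lower after 955 for 6 h, and 1 was higher and 4 were lower after SNS-032, with medians of -1.05 and -1.65 in the authors' deposited table. Their implied DMSO levels, 2.65 to 4.95 CPM, all exceeded those of the 6 own-promoter genes, whose highest was 0.63 CPM. Length was not accounted for, so these levels do not rank molecules. No listed gene had an average level under 0.003 log2 CPM, about 1 CPM, so a gene under that in DMSO was listed only if another group was higher. The order of the DMSO levels thus partly follows from the listing. The sequences of 3 hosted snoRNAs are shown to set their short form beside U3, with boxes C and D in capitals as above.
SNORD104 (chr17:64146083-64146152, plus strand): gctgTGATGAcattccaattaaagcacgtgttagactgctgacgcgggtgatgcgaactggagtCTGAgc
SNORD25 (chr11:62855564-62855632, minus strand): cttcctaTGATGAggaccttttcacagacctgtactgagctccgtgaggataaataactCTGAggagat
SNORD96A (chr5:181241814-181241892, minus strand): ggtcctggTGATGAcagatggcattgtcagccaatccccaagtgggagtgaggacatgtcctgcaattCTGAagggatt

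SNORD31, in SNHG1, fell the most. Its implied level was 3.71 CPM in DMSO, 2.04 CPM after 955 for 1 h, 0.092 CPM after 955 for 6 h and 0.0792 CPM after SNS-032. The authors' deposited table gives -0.87 (SE 0.58, FDR 0.673), -5.33 (SE 0.76, FDR 4.07e-06) and -5.55 (SE 0.78, FDR 3.31e-06) at an average of 0.56 log2 CPM. SNORD104, in SNHG25, was lower at every time, with -2.54 (FDR 0.00525), -3.20 (FDR 7.22e-05) and -2.17 (FDR 0.0025) in the authors' deposited table at 0.90 log2 CPM. Its value at 1 h lay between its values at 6 h, while SNORD31 was not past the threshold at 1 h.

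SNORD96A, in RACK1, was past the threshold after SNS-032 only, with -1.68 (FDR 0.0719), -1.05 (FDR 0.153) and -1.65 (FDR 0.0175) in the authors' deposited table at 0.69 log2 CPM. SNORD25, which SNHG1 also holds, gave -1.75 (FDR 0.0885), -0.68 (FDR 0.469) and -1.49 (FDR 0.0494) there at 0.59 log2 CPM. SNHG1 thus holds members with -0.68 and -5.33 after 955 for 6 h, a difference that was not tested. All bases of SNORD25, SNORD31 and SNORD96A lie in exon models of their hosts, so reads of the host can be counted in them. SNORD17, in SNX5, gave 0.61 (FDR 0.695), 0.94 (FDR 0.1248) and 1.16 (FDR 0.0486) in the authors' deposited table at 2.52 log2 CPM, the only hosted snoRNA past the threshold upward. On the mitochondrial scale 5 of 5 were lower in both 6 h comparisons, SNORD17 included, at -1.14 and -1.19. Of all listed genes 66.4% and 72.1% were lower on that scale, with medians of -3.10 and -3.41, so SNORD17 lay above the medians. At 1 h, 4 of the 5 were lower on that scale (background 30.7%).

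Cajal body RNAs guide the modification of spliceosomal RNAs. SCARNA2, SCARNA9 and SCARNA17 were 3 of 3 higher in both 6 h comparisons. All 3 had implied DMSO levels under 1 CPM, so a rise in some group was fixed by the listing. SCARNA2, which has a promoter of its own, had implied levels of 0.117, 0.231, 3.65 and 3.87 CPM in DMSO, 1 h of 955, 6 h of 955 and SNS-032. It gave 0.98 (FDR 0.622), 4.96 (FDR 2.97e-07) and 5.04 (FDR 2.16e-07) in the authors' deposited table at 0.98 log2 CPM. SCARNA17, which shares its 5′ end with SNHG22, gave 0.24 (FDR 1), 3.22 (FDR 0.00385) and 4.07 (FDR 0.000475) there at 0.01 log2 CPM. For SCARNA9, in CEP295, the authors' deposited table has 0.72 (FDR 0.642), 2.25 (FDR 0.000412) and 2.39 (FDR 0.000211) at 1.08 log2 CPM. Only SCARNA2 was past the threshold on the mitochondrial scale, at 2.89 and 2.70.

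RPPH1 is the RNA of RNase P, which trims the 5′ ends of tRNA precursors, and its gene is read by RNA polymerase III from an upstream promoter with the same SNAP complex that serves snRNA genes. It was the only RNA of that promoter type among the members, of 12 such genes on the list drawn up for it. The first 300 of its 333 bases are shown because RPPH1 is 1 of 5 members that differed between the compounds.
RPPH1 (chr14:20343075-20343407, minus strand): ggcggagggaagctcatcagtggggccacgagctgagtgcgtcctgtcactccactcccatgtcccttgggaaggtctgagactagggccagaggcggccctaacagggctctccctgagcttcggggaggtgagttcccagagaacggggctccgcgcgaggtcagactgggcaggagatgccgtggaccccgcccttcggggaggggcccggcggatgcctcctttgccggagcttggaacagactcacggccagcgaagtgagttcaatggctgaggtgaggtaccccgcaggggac
The implied level of RPPH1 was 0.788 CPM in DMSO, 2.02 CPM after 955 for 1 h, 17.1 CPM after 955 for 6 h and 53.1 CPM after SNS-032. It was past the threshold in all 3 comparisons of the authors' deposited table, with 1.36 (SE 0.29, FDR 0.00757), 4.44 (SE 0.30, FDR 2.48e-10) and 6.07 (SE 0.31, FDR 4.4e-12) at 4.19 log2 CPM. It stayed past it at 6 h on the mitochondrial scale, at 2.37 and 3.73, but not at 1 h, at 0.69.

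The SRP RNAs RN7SL1 and RN7SL2, polymerase III transcripts with promoter elements inside the gene, had smaller values. RN7SL1 gave 0.01 (FDR 1), 2.38 (FDR 0.000496) and 1.90 (FDR 0.00379) in the authors' deposited table at 1.07 log2 CPM. RN7SL2 gave -0.49 (FDR 0.811), 1.78 (FDR 0.0014) and 1.94 (FDR 0.000589) there at 2.10 log2 CPM. Both genes have many near-identical copies in the genome, so reads may be shared among them. Neither was past the threshold on the mitochondrial scale at 6 h, where their values ran from -0.45 to 0.31. At 1 h RN7SL2 was lower past it on that scale, at -1.16.

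The 4 nuclear tRNA genes, for alanine, phenylalanine, lysine and arginine, were all higher in both 6 h comparisons, and stayed so on the mitochondrial scale, with medians there of 2.90 and 2.76. Each belongs to a family of genes with 1 anticodon, of 8, 11, 13 and 5 RefSeq genes, so assignment to the single gene is uncertain. The implied DMSO levels of all 4 were under 1 CPM, so a rise in some group was fixed by the listing. TRF-GAA1-6 gave 1.06 (FDR 0.826), 6.18 (FDR 1.45e-06) and 6.54 (FDR 6.19e-07) in the authors' deposited table at 0.08 log2 CPM. TRR-TCG2-1 gave 0.05 (FDR 1), 5.36 (FDR 1.17e-06) and 5.17 (FDR 1.72e-06) there at 0.83 log2 CPM. For TRK-TTT3-1 the authors' deposited table has 0.80 (FDR 0.949), 4.46 (FDR 0.000291) and 5.04 (FDR 8.08e-05) at 0.24 log2 CPM.

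TRA-TGC4-1 was the only member that moved both ways. Its implied level was 0.19 CPM in DMSO, 0.00339 CPM after 955 for 1 h, 4.53 CPM after 955 for 6 h and 4.48 CPM after SNS-032. The authors' deposited table gives -5.81 (FDR 0.00184), 4.58 (FDR 2.48e-07) and 4.56 (FDR 2.35e-07) at 1.20 log2 CPM. The 1 h level is at the lowest implied level of the table, so the size of that fall depends on the authors' fit.

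TRNP, the mitochondrial proline tRNA, lay near the mitochondrial mRNAs. It gave 0.49 (FDR 0.0536), 2.03 (FDR 1.16e-10) and 2.22 (FDR 2.32e-11) in the authors' deposited table at 5.73 log2 CPM, and -0.04 and -0.13 at 6 h after scaling on those mRNAs.

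Most of the 13 microRNA genes were also higher at 6 h, by less than the snRNA median. Of them, 9 were higher and 2 lower after 955 for 6 h, and 9 and 2 after SNS-032 for 6 h, with medians of 1.32 and 1.36 in the authors' deposited table, and none was past the threshold at 1 h. On the mitochondrial scale 1 was higher and 4 lower after 955 for 6 h, and none higher and 6 lower after SNS-032. At 1 h on that scale 2 were lower (background 30.7%), MIR142 at -1.17 and MIR25 at -2.76. The counts refer to the gene, and with an mRNA kit need not measure the mature microRNA. Mature sequences of 6 genes are shown, from RefSeq (GRCh38.p14) with the seed, bases 2 to 8, in capitals, since these carry the largest fold changes, a difference between the compounds, or the largest fall.
hsa-miR-378i (MIR378I, chr22:41923271-41923291, minus strand): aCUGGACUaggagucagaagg
hsa-miR-548ar-5p (MIR548AR, chr13:114244505-114244525, plus strand): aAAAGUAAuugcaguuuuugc
hsa-miR-324-5p (MIR324, chr17:7223343-7223364, minus strand): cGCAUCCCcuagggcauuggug
hsa-miR-142-3p (MIR142, chr17:58331245-58331267, minus strand): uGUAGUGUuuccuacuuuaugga
hsa-miR-142-5p (MIR142, chr17:58331283-58331303, minus strand): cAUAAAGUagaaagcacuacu
hsa-miR-1914-5p (MIR1914, chr20:63941511-63941532, minus strand): cCCUGUGCccggcccacuucug
hsa-miR-25-3p (MIR25, chr7:100093571-100093592, minus strand): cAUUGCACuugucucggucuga
All 13 genes matched RefSeq, with 21 mature sequences and 21 different seeds, so no members shared a seed.

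MIR378I had the largest microRNA value, with 2.09 (FDR 0.0921), 3.95 (FDR 7.27e-05) and 3.56 (FDR 0.000213) in the authors' deposited table at 0.40 log2 CPM. MIR548AR gave 1.38 (FDR 0.261), 2.62 (FDR 0.00095) and 3.14 (FDR 0.000147) there at 0.49 log2 CPM. For MIR324 the authors' deposited table has -0.30 (FDR 1), 2.70 (FDR 8.66e-06) and 2.81 (FDR 4.72e-06) at 1.93 log2 CPM, and for MIR6840 0.54 (FDR 0.728), 2.28 (FDR 7.64e-05) and 2.61 (FDR 1.45e-05) at 1.23 log2 CPM.

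MIR25, in an intron of MCM7, was lower in both 6 h comparisons, at -2.50 (FDR 0.00363) and -2.36 (FDR 0.00561) in the authors' deposited table, after -2.08 (FDR 0.0615) at 1 h. MIR3186, MIR3916, MIR4426 and MIR1244-2 were higher in both, between 1.07 and 2.23 there. MIR3064 passed after 955 alone, at 1.32 beside 1.02 (FDR 0.0609), and MIR3654 after SNS-032 alone, at 1.32 beside 0.88, below the fold bound. The mature MIR1244-2 sequence is shared by 3 genes, and MIR1244-2 and MIR4426 lie in the pseudogenes PTMAP2 and RPS27AP5, so reads of the parent genes may reach them. RPS27A, the parent of RPS27AP5, had 1.12 and 1.43 at 6 h in the authors' deposited table, beside 1.10 and 1.85 for MIR4426.

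The treated groups were then compared directly at 6 h, as the difference of the log2 fold changes for 955 at 0.1 µM and SNS-032 at 1 µM. The test was an approximate t test built from the authors' F statistics, adjusted over the 5759 listed genes. Of the 44 members, 4 were lower with 955 (background 0.26%) and 1 was higher (background 0.851%). SNORD3A differed by -1.79 on the log2 scale (95% interval -2.25 to -1.33, adjusted p 0.000213). RNU4ATAC differed by -2.39 (-3.50 to -1.27, adjusted p 0.0176), RPPH1 by -1.64 (-2.28 to -0.997, adjusted p 0.00702) and MIR1914 by -1.81 (-2.69 to -0.94, adjusted p 0.0204). MIR142 was higher with 955 by 1.97 (1.26 to 2.67, adjusted p 0.00268). With an SE that takes the controls as separate, 1 of these 5 calls held.

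The sign was negative for all 9 snRNAs, from -2.39 to -1.62, and for all 6 own-promoter snoRNAs, from -2.0 to -1.30. Of these 15, only RNU4ATAC and SNORD3A passed the adjustment. The other members of both groups had wider intervals, among them RNU5A-1 at -2.09 (-3.88 to -0.30) and SNORD13 at -1.30 (-3.27 to 0.67). The SE of the difference is built from the comparisons with DMSO. Such intervals therefore also carry the error of DMSO counts near 0, and not only the spread between the treated groups. Differences of the nuclear tRNAs ran from -0.58 to 0.19, with intervals that reach from -2.41 to 1.64, those of the Cajal body RNAs from -0.85 to -0.09, and those of the SRP RNAs from -0.16 to 0.48. None of these passed, and their intervals also allow differences of more than 1. TRNP had the narrow interval of -0.49 to 0.12. The doses differ by compound, so a difference or its absence does not compare the compounds at matched dose.

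MIR142, a blood-cell microRNA gene, had implied levels of 7.99, 5.67, 7.70 and 1.97 CPM in DMSO, 1 h of 955, 6 h of 955 and SNS-032, and was past the threshold after SNS-032 alone, at -2.02 (FDR 5.65e-05) beside -0.05 (FDR 1) after 955 at 6 h in the authors' deposited table. MIR1914 gave -1.16 (FDR 0.0479) after 955 and 0.66 (FDR 0.31) after SNS-032 there. All bases of MIR1914 lie in exon models of UCKL1, so reads of UCKL1 can be counted in it. Between 1 h and 6 h of 955, 31 members were higher at 6 h (background 27%) and 2 lower (background 35.6%), with a median difference of 2.88 beside -0.45 over all listed genes.

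**Figure D3:**
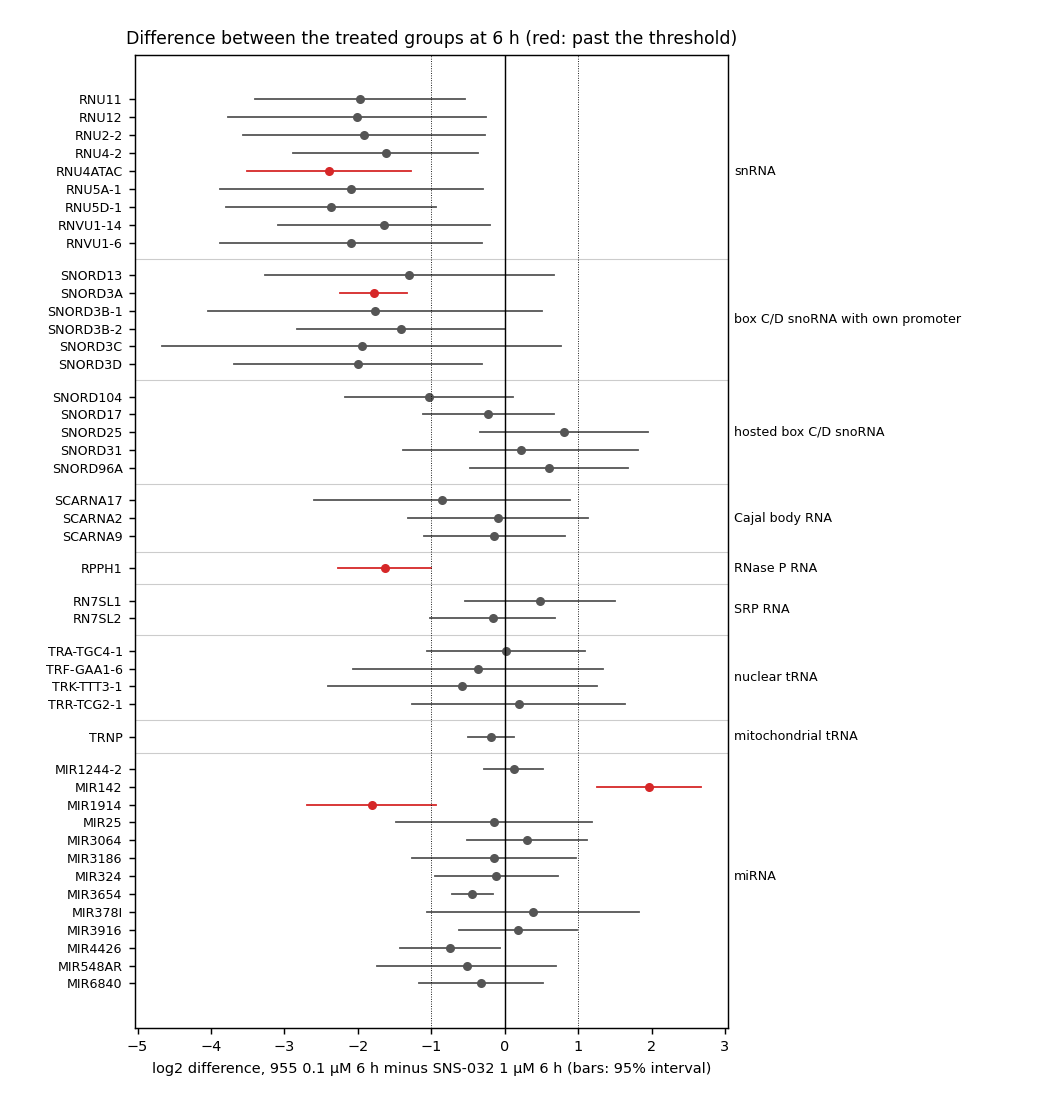
Log2 difference of 955 at 6 h minus SNS-032 at 6 h for each member, by class, with 95% intervals. Red marks the 5 differences past the threshold. All 9 snRNAs and 6 own-promoter snoRNAs lie left of zero, while tRNAs and SRP RNAs lie on both sides of it and Cajal body RNAs between -0.85 and -0.09.

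Members inside a host on the same strand had smaller median changes. An annotated gene around the member on its strand, pseudogenes included, was found for 18 members. Their medians at 6 h were 1.26 after 955 and 1.24 after SNS-032, with 10 higher and 3 lower, and 11 and 5. The 6 members with only an opposite-strand gene had 3.60 and 4.86, with 6 of 6 higher. The 20 with neither had 5.09 and 6.07, with 19 higher and 1 lower in each comparison. The lower one is SNORD31, which lies in SNHG1 but is 1 of 5 members with no annotated strand. The 3 sets differ in class and level, so position alone was not isolated. Host annotation came from RefSeq and, for OVOL2, PILRB, TTI2 and PARP16, from GENCODE 29, and 5 of the 20 same-strand hosts were in the table. The hosts of the 5 snoRNAs, SNHG25, SNX5 and OVOL2, SNHG1 and RACK1, are not analysed here, nor are TAF12-DT (RNU11), LOC105378179 (RN7SL2), SNHG22, CEP295, MIR142HG, UCKL1, MCM7, DDX5, CDC16 and PTMAP2.

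WDR74, a ribosome assembly gene, starts at the same base as RNU2-2 and is the clearest pair. It gave -0.28, -1.25 (FDR 1.55e-05) and -1.04 (FDR 0.000136) in the authors' deposited table, while RNU2-2 gave 1.63, 4.40 and 6.33 (FDR 0.449, 9.82e-05 and 1.37e-06). All bases of RNU2-2 lie in exons of WDR74 models. CHCHD3, a mitochondrial inner membrane gene, gave 0.13, -1.77 and -1.64, and MIR3654 in its intron gave 0.43, 0.88 and 1.32 in the authors' deposited table. MIR3654 also lies in the pseudogene LOC729998.

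In 2 microRNA pairs host and member were both higher. TNFRSF13C, which encodes the BAFF receptor, gave 2.45 and 2.26 at 6 h in the authors' deposited table, and MIR378I, within its exon, gave 3.95 and 3.56. PILRB gave 1.69 and 1.88 and the readthrough gene STAG3L5P-PVRIG2P-PILRB 2.06 and 2.21, beside 2.28 and 2.61 for MIR6840, which lies in a PILRB exon. For members in host exons the counts of the host and the member can come from the same reads, and the counting and its use of strand are not given in the sources used here. The same limit holds for RNU2-2, SNORD25, SNORD31, SNORD96A, SCARNA17, MIR1914 and MIR3064, whose bases all lie in exon models of a gene around them.

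Opposite-strand genes in the table numbered 5 of 8. TTI2 overlaps all of SNORD13 and gave -3.03 and -3.90 at 6 h in the authors' deposited table, where SNORD13 had 9.84 and 11.14. PARP16, around RNU5A-1, gave -0.99 and -1.15 there, beside 6.96 and 9.04 for RNU5A-1. The other 3 moved with their member upward: ACADVL 2.03 and 2.23 beside MIR324 at 2.70 and 2.81, RPS29 1.33 and 1.79 beside RN7SL1 at 2.38 and 1.90, and BAHCC1 1.22 and 1.29 beside MIR3186 at 2.08 and 2.23, in the authors' deposited table.

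**Figure D4:**
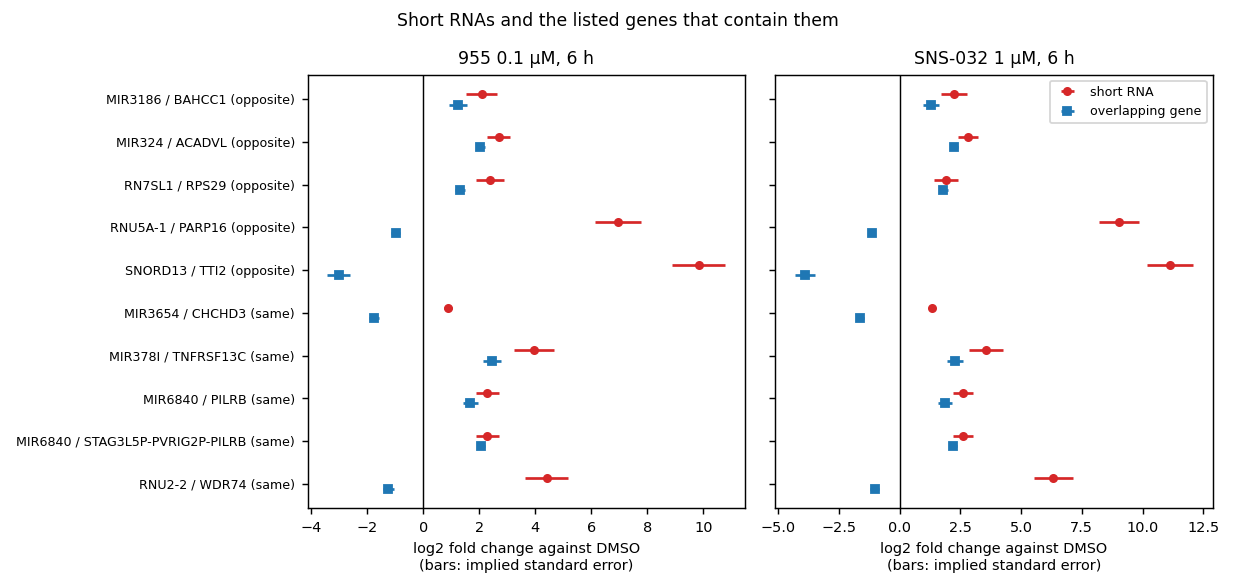
Log2 fold change against DMSO at 6 h of a short RNA (circle) and of the listed gene that contains it (square), with implied SE, for 955 (left) and SNS-032 (right). Same and opposite give the relative strand. RNU2-2, RNU5A-1, SNORD13 and MIR3654 lie right of zero and their genes left, while the other pairs lie right together.

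Most listed protein genes that make or carry these RNAs moved the other way from most of the RNAs. Of 198 genes on 11 lists, 121 were listed; 5 were higher and 102 lower after 955 for 6 h, and 9 and 101 after SNS-032, with medians of -1.55 and -1.54. Lower genes were 50.1% and 52.5% of all listed genes. At 1 h, 12 of the 121 were lower and none higher past the threshold, beside 7.71% lower and 0.729% higher over all listed genes.

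The U3 processome, which assembles around U3 on the ribosomal RNA precursor, had 27 listed genes, of which 27 were lower after 955 and 26 after SNS-032. UTP14A gave -3.53 and -3.77, MPHOSPH10 -3.19 and -4.46, and IMP3, which helps U3 to pair, -2.20 and -2.96 in the authors' deposited table. The box C/D particle list had 6 of 7 lower in each 6 h comparison, with NUFIP1 at -2.86 and -3.02, RRP9, the U3-specific protein, at -2.78 and -2.84, and RPAP3 at -1.13 and -1.54 there. These fell while the counts of the U3 copies rose.

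All 8 listed RNase P and MRP proteins were lower in both, as POP7 (-3.14 and -4.62), RPP40 (-2.61 and -2.93) and RPP25L (-2.70 and -2.71) show in the authors' deposited table. POP7 differed between the compounds by 1.48 (adjusted p 0.00029). Of 19 listed snRNP, Sm, LSm and SMN genes 15 were lower and 1 higher after 955, and 16 and 2 after SNS-032. Among them DDX20, an SMN complex helicase, gave -4.29 and -5.31, PHAX, the snRNA export adaptor, -2.99 and -3.19, and LSM10, of the U7 particle, -2.69 and -2.95 in the authors' deposited table.

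For the makers of snRNA, 8 Integrator genes were listed, 6 lower and 2 higher after 955, and 4 and 2 after SNS-032. INTS5 gave -2.86 and -2.95, INTS12 -1.52 and -1.56, and INTS1 1.54 and 1.68 in the authors' deposited table. Of 7 listed promoter factors, 3 were lower after 955 and 4 lower with 2 higher after SNS-032, among them SNAPC2 at -2.93 and -3.83, ZNF143 at -1.74 and -1.92, and ICE1 at -1.38 and -1.54 there. The polymerase III list had 14 of 16 lower after 955 and 13 after SNS-032, with BRF2, the factor for RPPH1-type promoters, at -3.77 and -3.78, and POLR3B at -3.88 and -3.18 in the authors' deposited table.

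In the SRP list 4 of 5 genes were lower in each comparison, among them SRPRB (-3.12 and -2.44), SRP68 (-2.80 and -2.71) and SRP19 (-1.91 and -2.07) in the authors' deposited table. In the H/ACA and telomerase list 4 of 6 were lower after 955 and 5 after SNS-032, with GAR1 at -2.25 and -3.03 and WRAP53, which brings RNAs to the Cajal body, at -2.08 and -2.38, while TERT was higher, at 1.60 and 1.96 there. Both listed genes of microRNA biogenesis were lower, DGCR8 at -1.09 and -1.21 and TARBP2 at -1.45 and -1.32 in the authors' deposited table. Of 16 listed trimming and exosome genes 13 were lower in each comparison, as TOE1, which trims snRNA tails (-4.04 and -4.06), EXOSC4 (-3.26 and -3.72) and EXOSC3 (-3.21 and -3.04) show there.

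**Figure D5:**
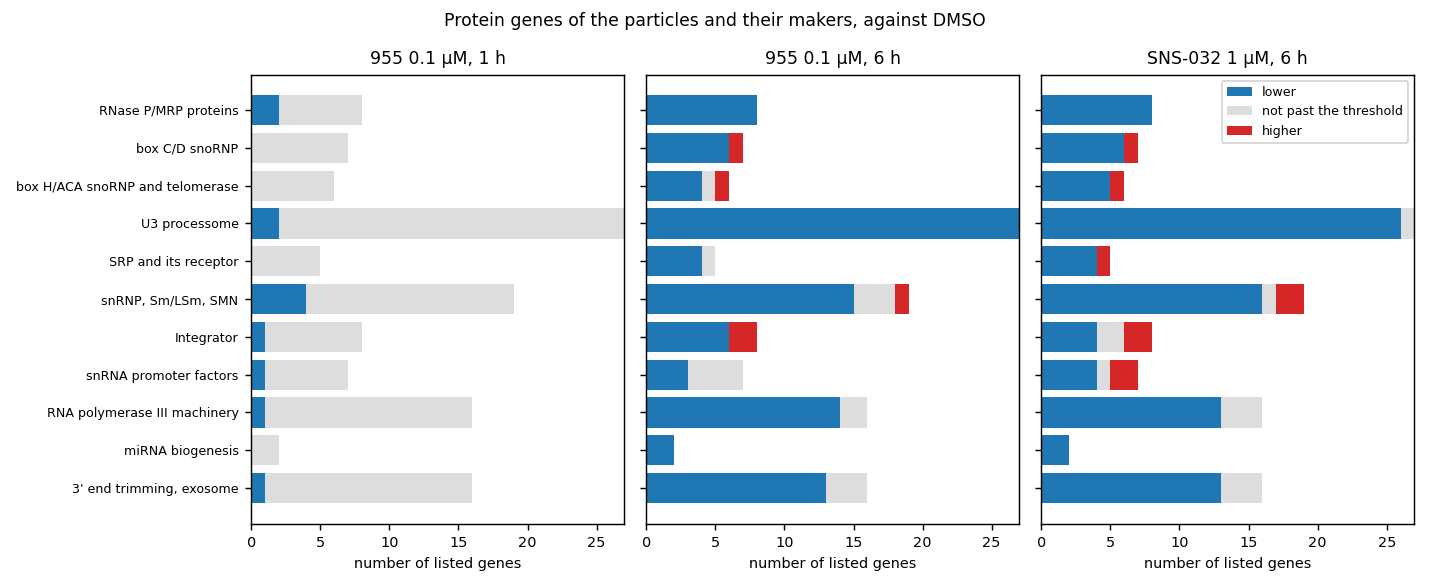
Number of listed protein genes lower (blue), not past the threshold (grey) and higher (red) against DMSO, for 11 lists of particle proteins and processing factors, in 3 panels by comparison. Lower genes fill the larger part of most bars at 6 h, among them 27 of 27 processome genes after 955, and a small part at 1 h.

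Of 19 T lymphoblast markers 7 were listed, with average levels from 4.75 to 8.06 log2 CPM, and among markers of other cell types COL1A1 and CD79A were, at 3.18 and 3.94. Levels in DMSO were low for many members: 15 had an implied level under 0.1 CPM and a further 14 one of 0.1 to 1 CPM. An average under 1 log2 CPM was found for 18 of 44. The median implied SE of the members was 0.58 at 6 h after 955, beside 0.24 over all listed genes.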

How the data were processed

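RNA sequencing of 12 MOLT4 samples in 4 groups was deposited as 1 table of the authors' own comparisons with DMSO. Samples were grouped by their titles. Per the file headers it holds an average log CPM per gene and, per comparison, the log fold change with its F statistic, p-value and FDR. The deposited log fold changes and average level were read as log2 values. F is a score deposited by the authors, used to recover the implied SE and the residual degrees of freedom. The p-value and FDR were used as the authors deposited them. The submitters' processing notes name DESeq2 and hg38 without a role; aligner, counting and filters are not given in the sources used here. No values per sample were used, so depth and its precision are unknown.

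Treated groups were compared by the difference of their log2 fold changes, with the root mean square of the implied SEs, a t distribution with the gene's degrees of freedom, and Benjamini-Hochberg adjustment over the 5759 listed genes. Values on the mitochondrial scale were tested in the same way. Tested on simulated data for 955 against SNS-032 at 6 h (5759 genes, 200 changed), the approximation recovered 99.5% of changed genes, against 99% for the direct test, and 0.5% of its calls were unchanged genes. RefSeq matched 5727 of the 5759 gene IDs. RefSeq GRCh38.p14 gave types, member positions and most hosts. GENCODE 29 gave the remaining hosts, strand, exons and printed sequences of nuclear and nucleolar RNAs and RPPH1. No sequence is printed for tRNAs, SRP RNAs, Cajal body RNAs or SNORD13, SNORD17 and SNORD31. The search of promoters for motifs planned earlier was not run. A few named items and 1 sequence are not reported here.

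Members, lists and the partner genes were chosen with earlier results of these data known. Named in full were the 4 members per class with the largest absolute change at 6 h and every member of a class of 4 or fewer, every listed host, and up to 3 genes per partner list with the largest change after SNS-032 among those past the threshold in both 6 h comparisons. SNORD3A, SNORD17, MIR25, MIR142, MIR1914, POU2F1 and SNAPC3 were added after their values were seen. Alternatives changed the fold bound, the FDR threshold, the scaling, the level filter, the host filter and the SE of the difference. Python 3.11.15, numpy 2.4.6, pandas 2.3.3 and scipy 1.17.1 were used.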

Additional observations from a re-analysis of the deposited data

Results flagged for a closer look

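TRA-TGC4-1, an alanine tRNA gene, moved in opposite directions at the 2 times of 955. The authors' deposited table gives a log2 fold change of -5.81 (FDR 0.00184) at 1 h and 4.58 (FDR 2.48e-07) at 6 h, a difference of 10.38. The approximate t test gave a 95% interval of 8.63 to 12.13 (adjusted p 5.623e-10). That interval is too narrow and that p too small. They use an SE of 0.84, from SEs of 1.07 at 1 h and 0.52 at 6 h, and SEs this unequal do not allow so small a value. The implied level of TRA-TGC4-1 at 1 h is the lowest of the table within 5%, and its 3 samples per group were not seen singly.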

How the results depend on the processing

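Scaling on mitochondrial mRNAs gave 8 members lower at 1 h, 21 higher and 9 lower after 955 for 6 h, 21 higher and 11 lower after SNS-032, and 5 lower at 6 h than at 1 h of 955. It reversed SNORD17 (-1.19), MIR1244-2 (-1.28) and MIR3654 (-1.02) after SNS-032. Scaling on the median of all listed genes gave 6 higher and 5 lower at 1 h, and 1 lower after SNS-032. Tests on either scale adjust over the listed genes only. An average level of at least 1 log2 CPM left 1 lower in each comparison with DMSO, and 22 and 23 higher at 6 h, fewer genes being kept. Without members in a same-strand host, 1 was lower in each comparison with DMSO, at 6 h SNORD31, whose strand is not annotated. With an SE that ignores the shared control, 0 members were higher and 1 lower for 955 against SNS-032, and 1 was lower at 6 h than at 1 h. The cause of these shifts was not tested. For single members, an FDR under 0.01 kept 125 values on their side of the threshold and took 7 below it.

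No paired analysis was possible because the table holds no values per sample; leaving out a replicate was not run for the same reason. Depth is unknown, and the members' low levels give wide errors.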
